A study of Mus musculus with 16 samples.

Results

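The set described here holds 40 genes of the cell division cycle, from the helicase that opens DNA for copying to the proteins that pinch daughter cells apart. They were chosen by symbol, as the rows of the deposited tables whose identifier is a listed gene, among 24371 genes in all. Of these, 37 had enough reads to be tested among 14607 genes, while Bub1, Kif2c and Melk did not.

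The study sequenced RNA from mouse hearts in which heart failure with preserved ejection fraction (HFpEF) was modelled for 12 weeks by L-NAME, which blocks nitric oxide synthase, given along with a high-fat diet. Every sample carried floxed alleles of Gpr91, the gene listed as Sucnr1, which encodes the cell-surface receptor for succinate. Samples formed 4 groups of 4: Gpr91fl/fl without succinate (floxed untreated), Gpr91fl/fl given succinate (floxed succinate), Myh6Cre Gpr91fl/fl without succinate (Cre untreated) and Myh6Cre Gpr91fl/fl given succinate (Cre succinate). The Myh6 promoter drives Cre in cardiomyocytes, so other heart cells keep the receptor gene, and the Cre transgene cannot be told apart from the loss of the receptor because no group carries Cre alone. All groups had the HFpEF treatment, so nothing here compares it with healthy hearts. Sex, age and the route and dose of succinate are not stated in the labels. Nothing states that 1 sample is 1 animal either, and a p-value here covers only the differences seen among the sequenced samples, which may be technical.

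A cell that divides first licenses its replication origins with the MCM helicase and makes deoxynucleotides, then copies its DNA, and then builds a spindle under the control of cyclin B with Cdk1, the Aurora kinases and Plk1. Adult cardiomyocytes have mostly left this cycle, and mitotic transcripts in an adult heart can also come from endothelial cells, fibroblasts, blood cells and macrophages. Transcription of these genes comes in waves: E2F factors act on genes of DNA replication, while the DREAM and MuvB complexes act on mitotic genes through a short element called the cell cycle genes homology region (CHR), often beside CCAAT boxes bound by NF-Y.

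Promoter sequences are shown for the 4 genes that passed a test below, Ccnb2, Mcm3, Mcm6 and Hmgb2, and for Cenpf. Cenpf was added as a gene whose level did not follow the proliferation marker Mki67. Whether promoter content relates to levels was not tested. The sequences are from RefSeq, build GRCm38.p6, from 250 bases before to 50 bases after the annotated start, 5′ to 3′ on the strand of the gene. They lie at chr9:70421505-70421804 (minus strand) for Ccnb2, chr1:20820263-20820562 (minus) for Mcm3, chr1:128359656-128359955 (minus) for Mcm6, chr8:57511593-57511892 (plus) for Hmgb2 and chr1:189688037-189688336 (minus) for Cenpf. Capitals mark matches on either strand to a CHR (TTTGAA or TTCGAA), to the letters CCAAT of a CCAAT box or to an E2F-type site (TTTCCCGC, TTTGGCGC, TTTCGCGC or TTTGCCGC). These motifs were chosen from general knowledge, and the 5 genes after their values were seen.
Ccnb2: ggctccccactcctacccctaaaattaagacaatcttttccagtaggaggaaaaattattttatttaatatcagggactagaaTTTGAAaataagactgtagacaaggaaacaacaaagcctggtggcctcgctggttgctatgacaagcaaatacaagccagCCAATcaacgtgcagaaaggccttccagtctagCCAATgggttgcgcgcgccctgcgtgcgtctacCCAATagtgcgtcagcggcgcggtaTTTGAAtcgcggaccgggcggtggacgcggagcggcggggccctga
Mcm3: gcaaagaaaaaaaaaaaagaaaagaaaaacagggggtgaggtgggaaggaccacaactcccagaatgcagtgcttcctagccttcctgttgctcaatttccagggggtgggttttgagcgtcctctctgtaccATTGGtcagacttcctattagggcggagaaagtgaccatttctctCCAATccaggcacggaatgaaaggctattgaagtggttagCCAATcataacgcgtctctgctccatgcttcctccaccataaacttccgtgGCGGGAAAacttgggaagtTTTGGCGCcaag
Mcm6: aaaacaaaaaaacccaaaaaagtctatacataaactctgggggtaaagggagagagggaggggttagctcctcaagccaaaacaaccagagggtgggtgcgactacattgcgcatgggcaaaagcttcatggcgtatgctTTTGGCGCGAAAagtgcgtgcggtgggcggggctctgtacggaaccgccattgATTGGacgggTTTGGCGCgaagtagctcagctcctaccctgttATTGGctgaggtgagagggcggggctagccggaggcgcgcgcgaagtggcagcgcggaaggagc
Hmgb2: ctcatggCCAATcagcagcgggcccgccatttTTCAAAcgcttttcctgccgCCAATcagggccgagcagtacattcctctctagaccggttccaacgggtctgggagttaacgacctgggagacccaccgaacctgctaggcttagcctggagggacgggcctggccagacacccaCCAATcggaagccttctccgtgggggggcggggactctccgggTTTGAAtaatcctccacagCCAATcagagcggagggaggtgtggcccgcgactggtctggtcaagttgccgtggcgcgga
Cenpf: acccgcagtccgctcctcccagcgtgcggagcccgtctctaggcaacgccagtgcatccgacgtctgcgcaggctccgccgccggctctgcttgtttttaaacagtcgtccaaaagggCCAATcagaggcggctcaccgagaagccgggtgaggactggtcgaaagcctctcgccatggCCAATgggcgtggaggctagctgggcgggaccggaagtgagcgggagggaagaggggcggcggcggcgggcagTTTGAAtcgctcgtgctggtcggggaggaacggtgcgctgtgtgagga
The promoter of Ccnb2, which encodes cyclin B2, held a CHR from base 4 to 9 after the start, counting the start as 0, and another from -167 to -162, with 3 CCAAT boxes at -87, -54 and -21. Cenpf, a large kinetochore protein, held a CHR from 2 to 7 and CCAAT boxes at -132 and -71. Hmgb2 held 2 CHR matches and 4 CCAAT boxes. The promoters of Mcm3 and Mcm6 held no match to the CHR forms searched but 2 and 3 E2F-type matches, of which 2 in Mcm6 overlap on opposite strands.

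Of the 40 members, 34 had an entry in the promoter table, giving 36 promoters. Aurkb, Pbk, Kif20a, Ccne2, Tpx2 and Ccna2 had none. A CHR match was found in 78.6% of the 28 promoters of members outside DNA replication and in 12.5% of the 8 promoters of replication genes, beside 19.2% of all 32851 promoters of the same length. CCAAT boxes were found in 78.6% and 87.5%, beside 37.4% of all promoters. E2F-type matches were found in 3.57% and 37.5%, beside 2.26% of all promoters. Both a CHR and a CCAAT box occurred in 71.4% of the 28 promoters and in 7.52% of all. These shares describe letters in a window and do not show that a factor binds there.

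**Figure D1:**
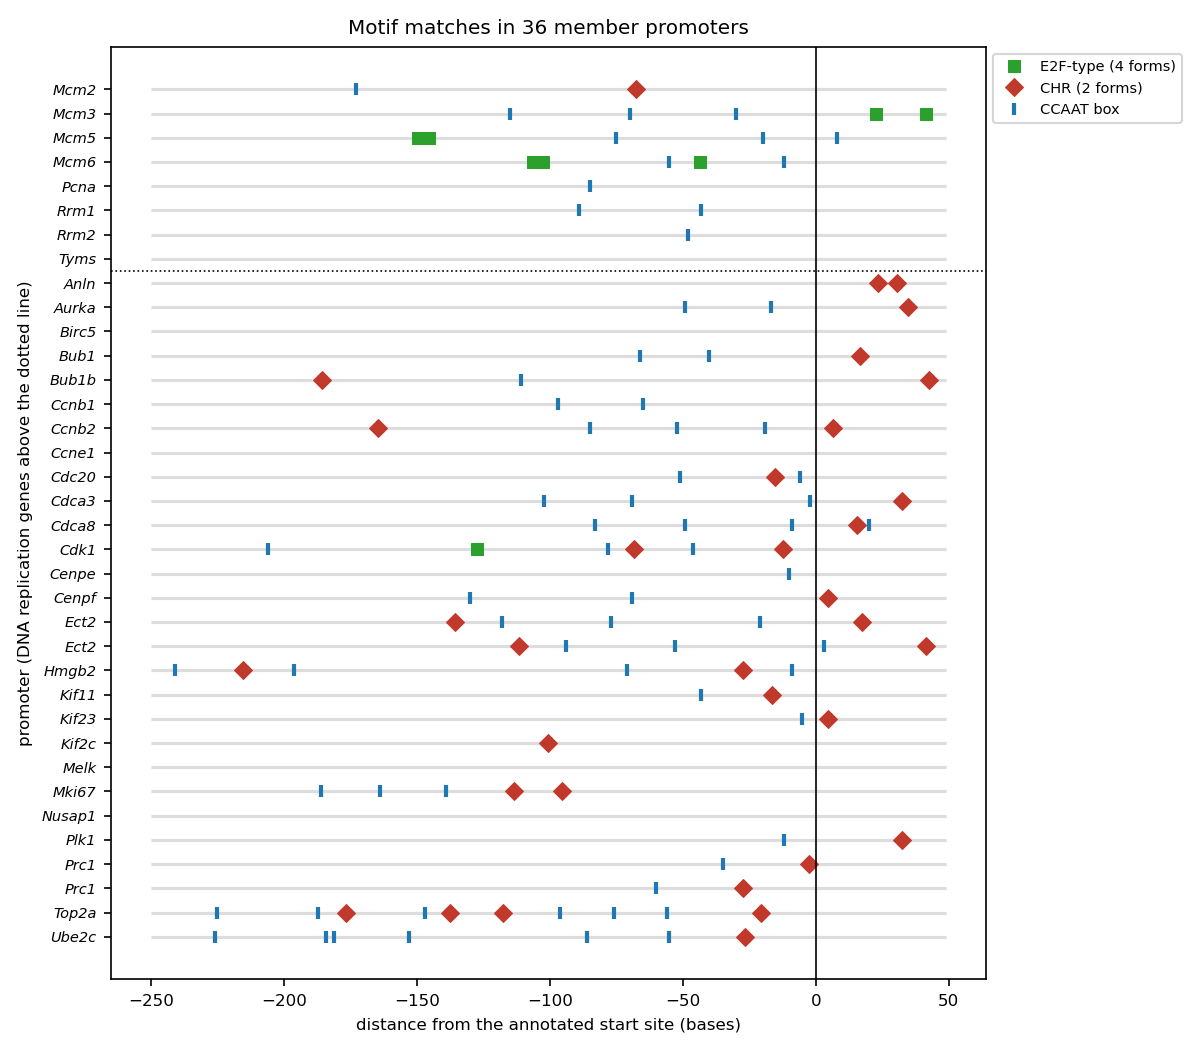
Positions of motif matches in 36 promoters of 34 members, with distance from the annotated start site in bases on the horizontal axis and 1 promoter per line; Ect2 and Prc1 have 2 promoters each. Green squares are E2F-type matches, red diamonds CHR matches and blue bars CCAAT boxes; 3 of the 4 promoters with an E2F-type match belong to replication genes (above the dotted line), and 22 of the 23 with a CHR lie below it.

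Libraries held 27835235 to 34700996 counts, and 3 counts, taken as the least that can be told from 0, corresponded to 0.0801 to 0.114 CPM, the count scaled to a common library total. Values in CPM below are scaled by TMM factors as well. Cardiomyocyte markers (Tnnt2, Tnni3, Actc1, Myh6, Ryr2 and Pln) summed to 32858 to 51902 CPM in every heart, as the tissue label says. Sucnr1 had 0 to 7 counts in the floxed libraries and 2 to 21 in the libraries labelled Myh6Cre, so its counts were not lower where the gene should be deleted and every genotype direction here rests on the labels. Correlations of replicate libraries of a group were 0.978 to 0.988.

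Compared per length, in FPKM, which scales the count by gene length and library total, the members were mostly faint. The mean over 16 hearts was under 1 FPKM for 34 of the 40 members. Pcna, the sliding clamp of DNA polymerase that also serves DNA repair, was the highest at 22.7 FPKM. Hmgb2, a DNA-bending chromatin protein, followed at 4.06, and then Rrm1, the large subunit of ribonucleotide reductase, at 3.61, Mcm3 at 2.30, Mcm2 at 2.08 and Mcm6 at 2.06. In each other role the highest member was fainter: Cenpf at 0.997 among spindle and kinetochore genes, Cdc20 at 0.835 among partners of the anaphase-promoting complex, Ccnb2 at 0.418 among cyclins, Bub1b at 0.377 among mitotic kinases and checkpoint genes, and Anln at 0.235 in cytokinesis. Mcm5, at 0.978, did not differ from Cenpf beyond the spread between hearts. The 3 untested members had at most 27 counts in any heart. Bub1, a spindle checkpoint kinase, measured 0 to 0.139 CPM in floxed untreated, 0.0314 to 0.190 in floxed succinate, 0.127 to 0.192 in Cre untreated and 0.124 to 0.799 in Cre succinate hearts. Kif2c, a kinesin that takes microtubules apart, reached 0.739 CPM in 1 Cre succinate heart and was at 0 in 1 floxed untreated heart. Melk, a kinase of proliferating cells, ranged from 0 to 0.448 CPM. In whole hearts, fewer cells of a type and less RNA per cell cannot be told apart, for any member.

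**Figure D2:**
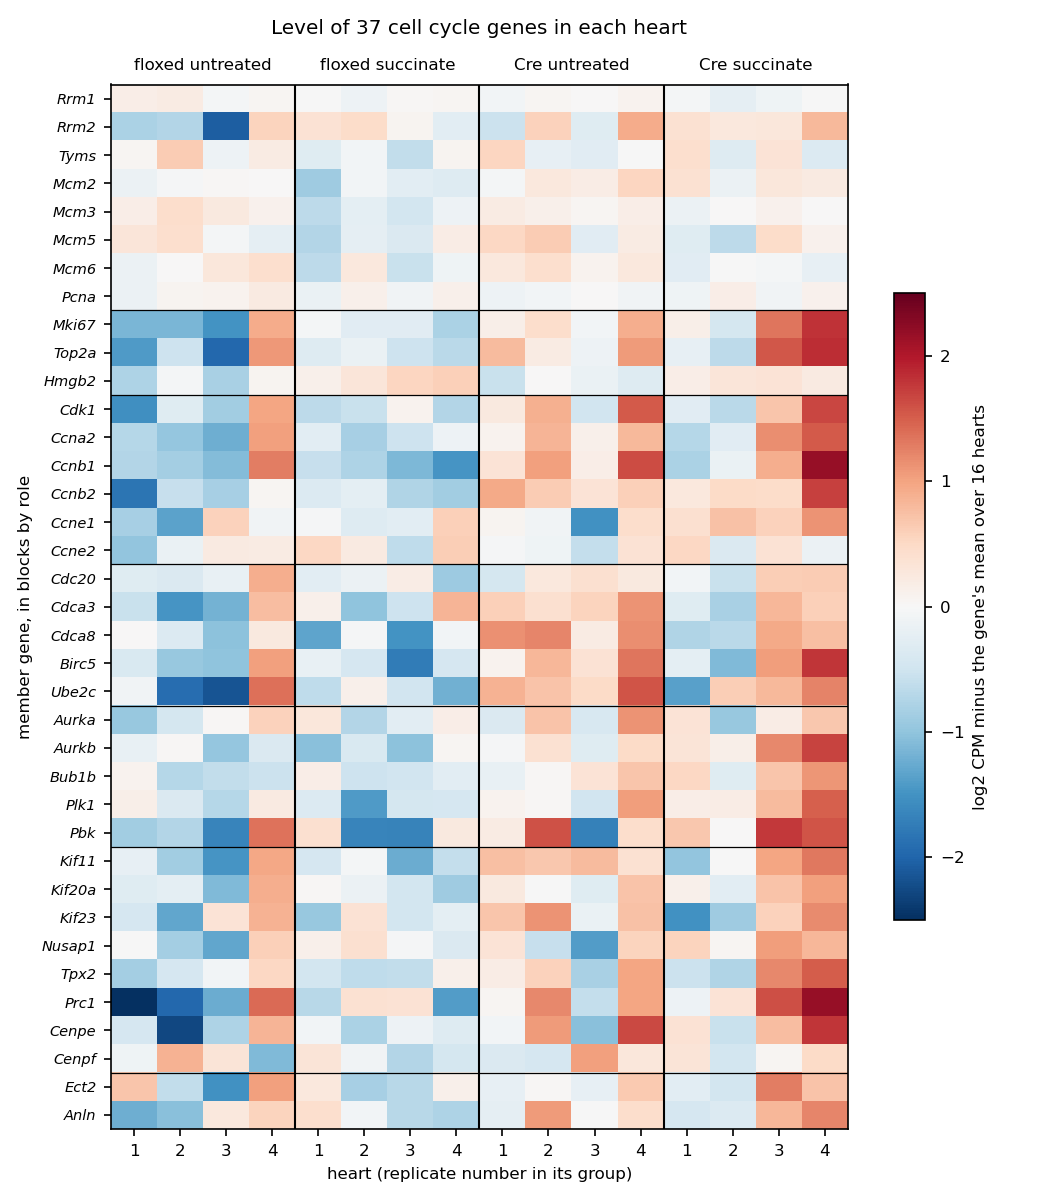
Level of the 37 tested members (rows, in blocks by role from DNA replication at the top to cytokinesis at the bottom) in each of 16 hearts (columns, by group and replicate number), as log2 CPM minus the mean of the gene over all hearts. Below the top block, red runs down whole columns: floxed untreated 4, Cre untreated 2 and 4 and Cre succinate 3 and 4 are high for most mitotic genes, while most replication genes in the top block are paler; Rrm2 there is above its own mean in these 5 columns too.

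Succinate was compared within each genotype and averaged over both, by a quasi-likelihood F-test in edgeR fitted on all genes, with p-values adjusted over all tested genes and a threshold of 0.05. The averaged comparison uses the same hearts as the other 2, so these are not separate evidence. Among replication genes Mcm3 and Mcm6 fell with succinate, to 0.770 and 0.765 of the untreated level on average, and Hmgb2 rose 1.54-fold. No cyclin, mitotic kinase, kinesin or spindle gene passed.

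In floxed hearts 2 of 37 members passed, 1 lower and 1 higher, where 13.1% of all tested genes passed, 5.64% lower and 7.48% higher. Mcm3, a subunit of the replicative MCM helicase, measured 7.68, 9.23, 8.15 and 7.34 CPM in floxed untreated hearts and 4.30, 5.77, 4.95 and 6.27 CPM in floxed succinate hearts. Every succinate heart lay below every untreated heart, as for 7.65% of all tested genes. The log2 fold change was -0.61 ± 0.13 (SE; 95% interval -0.87 to -0.35), with an adjusted p of 0.00475. In Cre hearts the same gene measured 7.88, 7.46, 7.12 and 7.71 CPM without and 6.20, 6.85, 7.34 and 6.89 CPM with succinate. These groups overlapped, and the difference of -0.14 ± 0.12 did not pass (adjusted p = 0.645). The averaged log2 fold change was -0.38 ± 0.09, with an adjusted p of 0.00629.

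In the averaged comparison 3 of 37 members passed, 2 lower and 1 higher, where 19% of all tested genes passed, 8.45% lower and 10.6% higher. Mcm6, another subunit of the same helicase ring, measured 8.0, 8.93, 10.8 and 12.0 CPM in floxed untreated and 5.59, 10.7, 5.99 and 8.28 CPM in floxed succinate hearts. In Cre hearts it measured 10.7, 11.9, 9.46 and 10.7 CPM without and 7.29, 8.87, 8.60 and 7.75 CPM with succinate. The groups overlapped in floxed hearts, where floxed succinate 2 lay above 2 of the untreated hearts, and in Cre hearts every succinate heart lay below every untreated heart, as for 3.39% of all tested genes. The averaged log2 fold change was -0.39 ± 0.12 (95% interval -0.64 to -0.13), with an adjusted p of 0.0344. That call was lost in 8 of the 16 fits that leave out 1 heart (adjusted p up to 0.0704), namely without floxed untreated 3 or 4, floxed succinate 1 or 3, Cre untreated 1 or 2, or Cre succinate 1 or 4. Within a genotype the differences were -0.38 ± 0.17 in floxed hearts (adjusted p = 0.161) and -0.39 ± 0.17 in Cre hearts (adjusted p = 0.310).

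The other MCM subunits did not pass. Mcm5 differed by -0.37 ± 0.19 in the averaged comparison (adjusted p = 0.173) and Mcm2 by -0.19 ± 0.12 (adjusted p = 0.265). Pcna was level: it measured 25.7, 30.0, 30.2 and 33.1 CPM in floxed untreated, 25.5, 31.1, 26.9 and 31.1 in floxed succinate, 26.2, 27.1, 28.5 and 26.7 in Cre untreated and 26.4, 32.0, 26.8 and 30.7 in Cre succinate hearts. The averaged succinate difference of Pcna was 0.02 ± 0.07 (95% interval -0.12 to 0.16). Among the genes that supply deoxynucleotides, the averaged difference was -0.11 ± 0.06 for Rrm1, 0.43 ± 0.30 for Rrm2, the small subunit of ribonucleotide reductase, and -0.21 ± 0.19 for Tyms, thymidylate synthase, and none passed.

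Hmgb2 measured 6.35, 10.5, 6.11 and 11.3 CPM in floxed untreated hearts and 11.8, 13.3, 15.6 and 16.3 CPM in floxed succinate hearts. In Cre hearts it measured 7.32, 10.9, 9.65 and 8.69 CPM without and 12.2, 13.4, 13.8 and 12.7 CPM with succinate. All 8 succinate hearts lay above all 8 untreated hearts, as for 1.67% of all tested genes. Within a genotype, 10.2% of all tested genes were apart in this direction in floxed hearts and 4.8% in Cre hearts. The log2 fold change was 0.73 ± 0.18 in floxed hearts (adjusted p = 0.0131), 0.51 ± 0.18 in Cre hearts (adjusted p = 0.183) and 0.62 ± 0.13 averaged (1.54-fold, adjusted p = 0.00261). The call in floxed hearts was lost without floxed untreated 1 (adjusted p = 0.0555) or 3 (adjusted p = 0.0558), the 2 lowest hearts. The interaction was -0.22 ± 0.25, so the data do not show that the response of Hmgb2 differed between genotypes.

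In Cre hearts 0 of 37 members passed with succinate, where 0.917% of all tested genes passed. At an unadjusted p under 0.05 there were 2 higher, Hmgb2 and Aurkb, and 1 lower, Mcm6, beside 7.99% and 6.07% of all tested genes. DESeq2 and limma voom also called 0. For the 28 tested members outside DNA replication other than Hmgb2, the succinate differences had no common direction: 7 were positive in both genotypes, 6 negative in both, 13 negative in floxed and positive in Cre hearts, and 2 the reverse. Over all 37 tested members the median log2 fold change in floxed hearts was -0.28, and it became 0.27 when floxed untreated 4 was left out, so its sign rests on that heart. Over all tested genes the median was 0.002.

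Cell type markers moved with succinate too. In floxed hearts 4 of 7 macrophage markers fell (Csf1r, Adgre1, C1qa and Lyve1), and averaged 5 fell, these and Ccr2, which also fell in Cre hearts. The summed macrophage level in floxed hearts was 201 to 298 CPM without and 117 to 176 CPM with succinate. In Cre hearts the sums were 221 to 292 and 137 to 234 CPM. The cardiomyocyte sum was 35134 to 41284 CPM without and 44697 to 51902 CPM with succinate in floxed hearts, and 32858 to 40278 against 41448 to 50708 CPM in Cre hearts. Of its 6 markers only Myh6 (log2 fold change 0.69) and Ryr2 (0.72) rose in floxed hearts, while Tnnt2, Tnni3, Actc1 and Pln, at -0.03 to 0.18, did not pass. Averaged over genotypes, Myh6 and Ryr2 rose, as did 1 endothelial marker, Fabp4 (log2 fold change 0.64), and 1 pericyte marker, Pdgfrb (0.26), and in Cre hearts Myh6 and Pdgfrb rose. The neutrophil genes S100a8 and S100a9 fell in floxed hearts and averaged, on 9 to 79 counts a heart, and the atrial marker Nppa fell in both as well. The part of these markers in the falls of Mcm3 and Mcm6 and the rise of Hmgb2 was not tested.

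**Figure D3:**
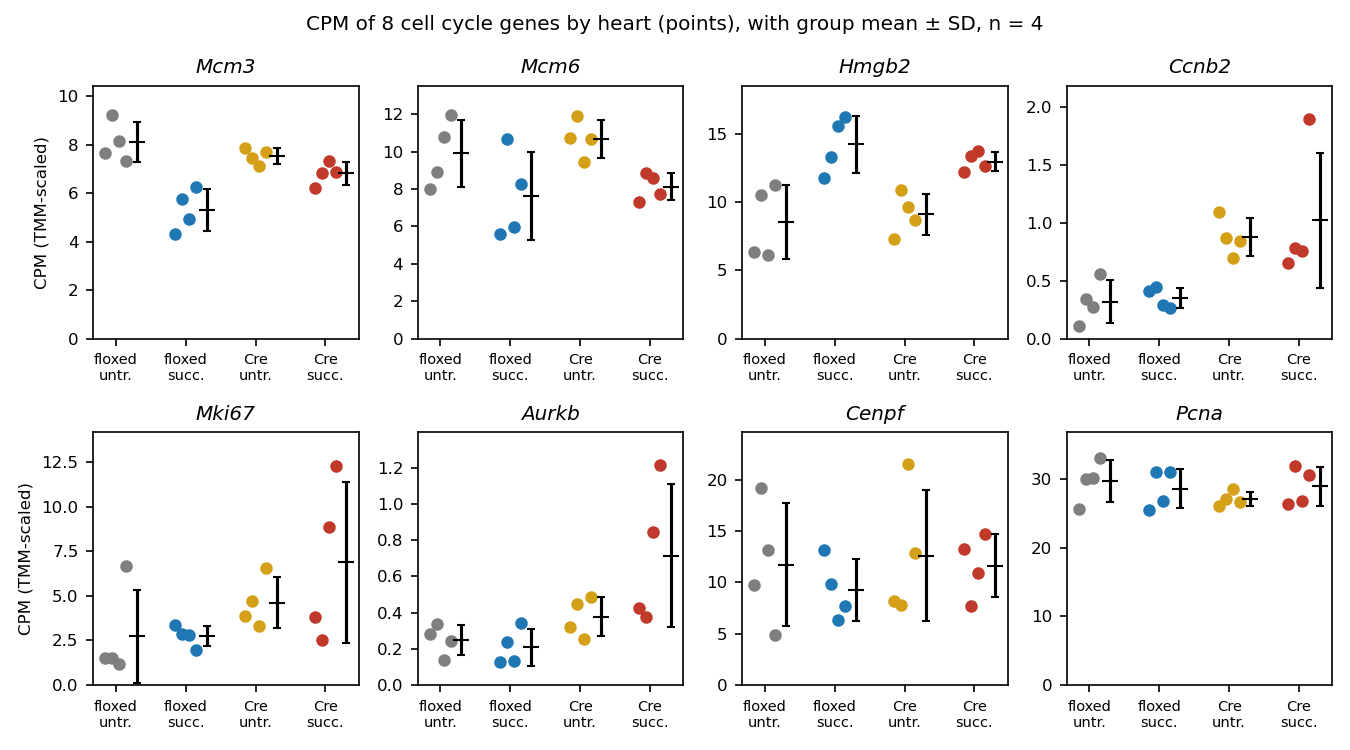
CPM of 8 members in each heart (points, in order of replicate number within a group) with the group mean and SD (bars, n = 4), every axis starting at 0; the 8 were chosen after their values were seen. Mcm3 is lowest in floxed succinate hearts, Hmgb2 is higher in both succinate groups, Ccnb2 is higher in both Cre groups without overlap, and Pcna is level.

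Genotype was compared without succinate, with succinate and averaged over both, the last again from the same hearts. Ccnb2 was 2.80-fold higher in hearts labelled Cre than in floxed hearts, and it was the only member that passed any genotype comparison. Most other mitotic genes had positive differences that did not pass, while replication genes other than Mcm2 and Rrm2 differed by -0.08 to 0.20 on the log2 scale.

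In the averaged comparison 1 of 37 members passed, in the higher direction, where 1.3% of all tested genes passed higher and 1.88% in either direction. Ccnb2 encodes cyclin B2, a partner of Cdk1 at entry into mitosis. It measured 0.105, 0.337, 0.273 and 0.554 CPM in floxed untreated hearts, the first being 3 counts, and 0.408, 0.441, 0.293 and 0.266 CPM in floxed succinate hearts. It measured 1.09, 0.864, 0.696 and 0.843 CPM in Cre untreated and 0.656, 0.778, 0.758 and 1.89 CPM in Cre succinate hearts. All 8 Cre hearts lay above all 8 floxed hearts, as for 0.301% of all tested genes. The averaged log2 fold change was 1.49 ± 0.31 (95% interval 0.84 to 2.13), with an adjusted p of 0.0151, and it stayed past the threshold in all 16 fits that leave out 1 heart (adjusted p 0.00800 to 0.0378). The difference was 1.45 ± 0.44 without succinate (adjusted p = 0.309) and 1.52 ± 0.43 with it (adjusted p = 0.128), so neither passed alone. Succinate itself moved Ccnb2 by 0.19 ± 0.31 on average (adjusted p = 0.711).

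The other cyclins and Cdk1 did not pass. Ccnb1, cyclin B1, differed by 1.78 ± 0.57 between genotypes on average (adjusted p = 0.125), on 1 to 41 counts a heart. Cdk1, the kinase that cyclins A and B activate, differed by 1.03 ± 0.43 (adjusted p = 0.272) and Ccna2, cyclin A2, by 0.95 ± 0.38 (adjusted p = 0.248). The E-type cyclins, which act at the start of DNA replication, differed by 0.46 ± 0.34 for Ccne1 and -0.04 ± 0.25 for Ccne2. Mki67, the antigen Ki-67 used to mark proliferating cells, measured 1.54, 1.53, 1.19 and 6.65 CPM in floxed untreated, 3.36, 2.85, 2.83 and 1.97 in floxed succinate, 3.87, 4.74, 3.32 and 6.58 in Cre untreated and 3.84, 2.55, 8.89 and 12.3 in Cre succinate hearts. The genotypes overlapped: floxed untreated 4 lay far above the other 3 hearts of its group, and Cre succinate 2 lay among the floxed succinate hearts. Its averaged difference was 1.04 ± 0.37 (adjusted p = 0.191).

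Of the mitotic kinases, Aurkb, the catalytic subunit of the chromosomal passenger complex, measured 0.281, 0.337, 0.136 and 0.243 CPM in floxed untreated and 0.126, 0.238, 0.130 and 0.342 CPM in floxed succinate hearts. It measured 0.320, 0.448, 0.253 and 0.486 CPM in Cre untreated and 0.427, 0.373, 0.845 and 1.21 CPM in Cre succinate hearts. With succinate the genotypes did not overlap, and the difference was 1.78 ± 0.47 (adjusted p = 0.102). Averaged, it was 1.18 ± 0.34 (adjusted p = 0.0821). Bub1b, the checkpoint protein BubR1, measured 1.37, 0.767, 0.819 and 0.866 CPM in floxed untreated, 1.45, 0.882, 0.912 and 1.06 in floxed succinate, 1.12, 1.31, 1.65 and 2.14 in Cre untreated and 1.87, 1.03, 2.13 and 2.84 in Cre succinate hearts. Of the Cre hearts 5 lay above all floxed hearts and 3 among them, with a difference of 0.78 ± 0.22 (adjusted p = 0.0825). Plk1, a kinase of mitotic entry and spindle assembly, differed by 1.02 ± 0.34 (adjusted p = 0.141), Aurka, the kinase of spindle poles, by 0.42 ± 0.33, and Pbk, a kinase of dividing cells, by 1.23 ± 0.62.

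Among the partners of Aurkb and of the anaphase-promoting complex, Cdca8, the passenger complex subunit borealin, measured 0.491, 0.368, 0.205 and 0.589 CPM in floxed untreated and 0.157, 0.475, 0.130 and 0.456 CPM in floxed succinate hearts. It measured 1.15, 1.22, 0.569 and 1.17 CPM in Cre untreated and 0.263, 0.280, 0.991 and 0.858 CPM in Cre succinate hearts. Only Cre untreated 3 fell inside the floxed untreated range, and Cre succinate 1 and 2 were among the floxed hearts. The difference was 1.31 ± 0.50 without succinate (adjusted p = 0.453) and 1.15 ± 0.36 averaged (adjusted p = 0.121). Birc5, survivin of the same complex, differed by 1.20 ± 0.46 (adjusted p = 0.212) and Ube2c, the E2 enzyme of the anaphase-promoting complex, by 1.12 ± 0.49 (adjusted p = 0.305). Cdc20, the activator of that complex, measured 1.12, 1.07, 1.23 and 2.70 CPM in floxed untreated, 1.16, 1.26, 1.60 and 0.721 in floxed succinate, 1.01, 1.70, 1.87 and 1.69 in Cre untreated and 1.35, 0.934, 2.19 and 2.22 in Cre succinate hearts. These ranges overlapped throughout, and the averaged difference was 0.26 ± 0.25 (adjusted p = 0.710).

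Spindle and kinetochore genes had averaged genotype differences from 0.21 to 1.21, and 0 of 8 passed. Kif11, the kinesin that pushes spindle poles apart, differed by 1.0 ± 0.37 (adjusted p = 0.198) and Prc1, which bundles the microtubules of the midzone, by 1.16 ± 0.55 (adjusted p = 0.350). Cenpf was the exception in level and in pattern: it measured 9.75, 19.2, 13.1 and 4.85 CPM in floxed untreated, 13.2, 9.88, 6.32 and 7.71 in floxed succinate, 8.14, 7.84, 21.5 and 12.8 in Cre untreated and 13.2, 7.66, 10.9 and 14.7 in Cre succinate hearts. All groups overlapped, and floxed untreated 4, high for other mitotic genes, was the lowest heart of all for Cenpf. Its averaged genotype difference was 0.21 ± 0.28 (95% interval -0.38 to 0.80). In cytokinesis, Anln, the actin-binding protein anillin, measured 0.596, 0.675, 1.77 and 2.18 CPM in floxed untreated, 1.98, 1.39, 0.880 and 0.835 in floxed succinate, 1.25, 3.14, 1.46 and 2.01 in Cre untreated and 1.08, 1.15, 2.65 and 3.49 in Cre succinate hearts. The genotypes overlapped, with a difference of 0.65 ± 0.33 (adjusted p = 0.397), and Ect2, the exchange factor that starts furrowing, differed by 0.34 ± 0.40 (adjusted p = 0.783).

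Of the replication genes, Rrm2 had the greatest averaged genotype difference, 0.53 ± 0.30 (adjusted p = 0.462), above that of some mitotic members such as Cdc20 and Cenpf. Mcm2 differed by 0.42 ± 0.12 (adjusted p = 0.0704), Mcm3 by 0.13 ± 0.09 and Mcm6 by 0.10 ± 0.12. For Pcna the difference was -0.06 ± 0.07 (95% interval -0.20 to 0.08), and for Rrm1 -0.08 ± 0.06. Without succinate 0 of 37 members passed, where 0.11% of all tested genes passed; 3 were higher in Cre at an unadjusted p under 0.05, beside 4.83% of all tested genes, and DESeq2 and limma voom called 0. With succinate 0 of 37 passed, where 0.691% of all tested genes passed; 13 were higher in Cre at an unadjusted p under 0.05, beside 6.37% of all tested genes, limma voom called 0 and DESeq2 called 2, Aurkb and Ccnb2. With succinate 3 members, Ccnb2, Plk1 and Aurkb, did not overlap between genotypes, all higher in Cre, as for 3.96% of all tested genes.

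In direction, 33 of the 37 tested members had a positive averaged genotype difference, beside 48.4% of all tested genes, and the median was 0.65, beside -0.004 over all tested genes. The median was 0.95 over the 29 tested members outside DNA replication and 0.11 over the 8 replication genes. At an unadjusted p under 0.05 there were 17 members, all higher in Cre, beside 7.87% of all tested genes in that direction. Several faint members entered the test through their Cre hearts: the filter passed 31 members on floxed hearts alone and 37 on Cre hearts alone. That tilts the tested set toward members that are higher in Cre hearts. The members also move together from heart to heart, so these counts describe the set and are no test of it. When floxed untreated 4 was left out, 8 of 39 tested members passed in the averaged comparison, Ccna2, Ccnb1, Ccnb2, Kif11, Mki67, Prc1, Top2a and Ube2c, beside 2.04% of all genes in that fit. Without Cre succinate 2 there were 3 of 39, Bub1b, Ccnb2 and Mcm2, beside 1.71%. With floxed untreated 4 and Cre succinate 4 both left out, a choice made after seeing the data, there were 4 of 38, Ccnb1, Ccnb2, Mki67 and Prc1, beside 1.53%. Every other fit without 1 heart called only Ccnb2, and the filter of 1 CPM in 4 samples called 0. Floxed untreated 4 was high for most mitotic genes, so leaving it out lowers their floxed level.

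**Figure D4:**
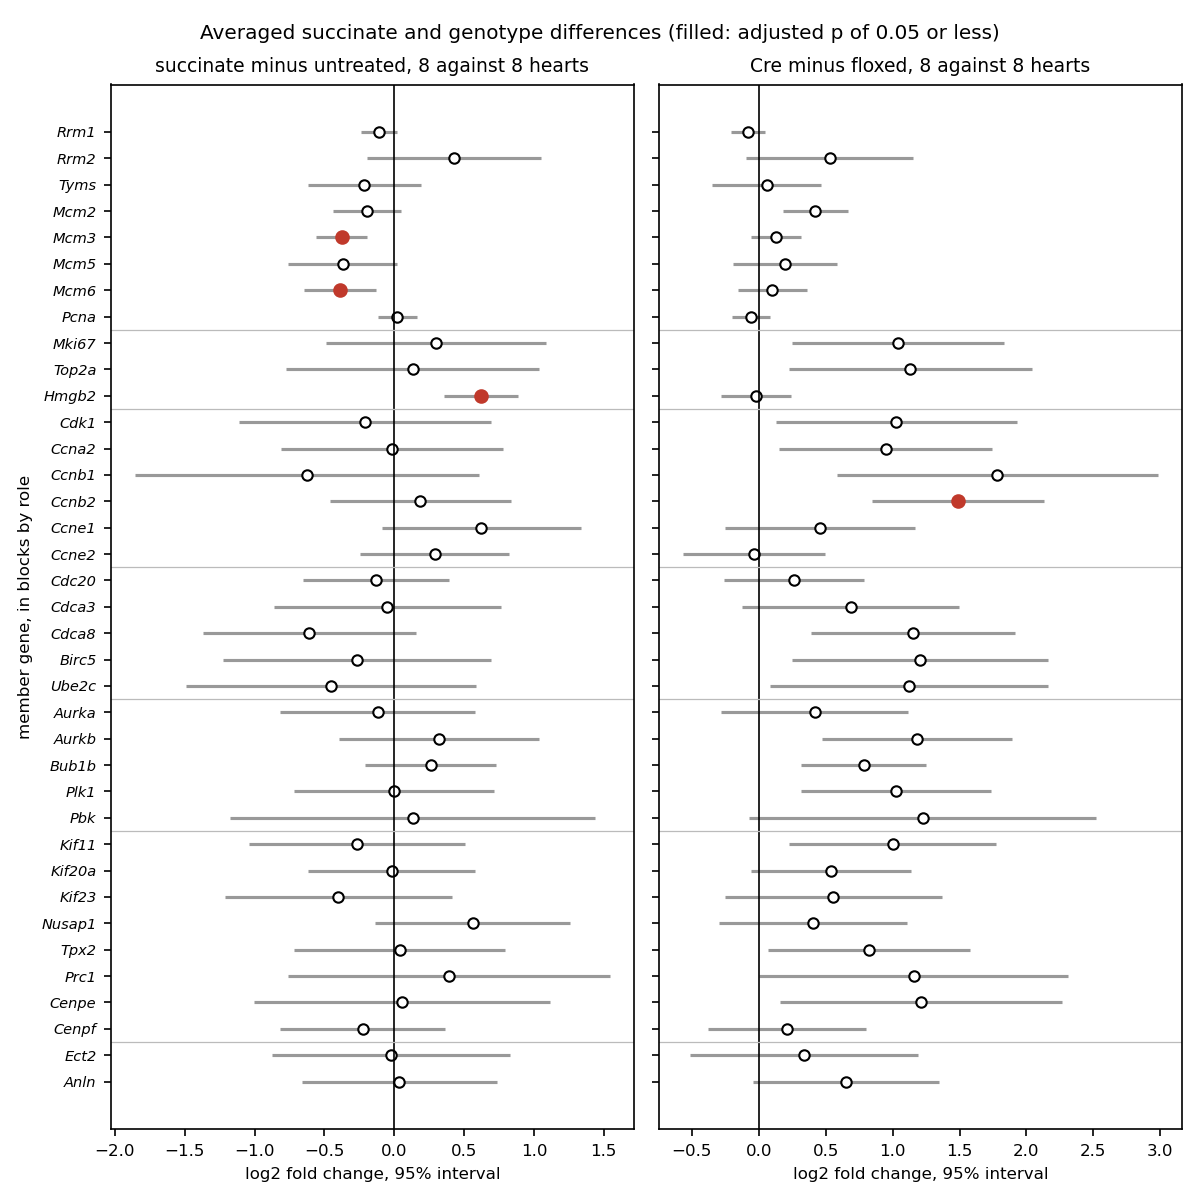
Log2 fold change (point) and 95% interval (line) of the 37 tested members for succinate (left) and for genotype (right), each averaged over the other factor, 8 against 8 hearts; filled points passed with an adjusted p of 0.05 or less. On the left Mcm3 and Mcm6 lie below 0 and Hmgb2 above; on the right most points lie above 0 but only Ccnb2 passed.

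Cell type markers differed between genotypes as well. The atrial marker sum was 65.4 to 461 CPM in floxed and 358 to 1614 CPM in Cre hearts, nearly all of it Nppa, which is also made in stressed ventricles. Sln, Myl7 and Bmp10, the more strictly atrial markers, had at most 11 counts in any heart. The fibroblast sum was 733 to 1058 CPM in floxed and 910 to 1378 CPM in Cre hearts, and 1 of 6 fibroblast markers, Lum, passed as higher. All 6 had a positive averaged difference, with a median of 0.41, and 5 had an unadjusted p under 0.05, beside 7.87% of all tested genes in that direction. None of 7 macrophage, 6 endothelial or 4 erythroid markers passed in the averaged genotype comparison. The part of these markers in the genotype difference of Ccnb2 was not tested.

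The interaction asks whether the succinate difference in Cre hearts differed from that in floxed hearts. It passed for 0 of 37 members and for 0% of all tested genes; 1 member, in the positive direction, had an unadjusted p under 0.05, beside 2.13% of all tested genes, and DESeq2 and limma voom called 0 members. That member was Mcm3, with an interaction of 0.46 ± 0.18 (95% interval 0.10 to 0.83, unadjusted p = 0.0163, adjusted p = 0.970). Aurkb followed with 1.21 ± 0.68 (95% interval -0.22 to 2.63, adjusted p = 0.970). The fall of Mcm3 in floxed hearts and its smaller difference in Cre hearts are therefore not shown to differ.

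The members outside DNA replication varied together from heart to heart. After the group means were removed from log2 CPM, the median correlation over 406 pairs of these 29 genes was 0.54, and it was 0.19 over 28 pairs of replication genes and 0.16 over 232 pairs across both. All values come from the same 16 libraries. Pairs of genes outside the set were not correlated, so whether other genes vary together as much is not known. Cre succinate 4 held the highest value of all 16 hearts for 18 of the 29 genes.

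Mki67 was taken, after its values were seen, as the reference for 36 correlations over the 16 hearts, each after group means were removed and with 100000 permutations within groups. Of the 28 members outside DNA replication, 18 passed by Pearson's r after Benjamini-Hochberg adjustment over the 36 and 14 by Spearman's rho, without Aurka, Cdca3, Plk1 and Tpx2. Genes outside the set were not correlated with Mki67, so no share over all tested genes stands beside these counts. They do not show that following Mki67 is particular to the members. Top2a, the topoisomerase that untangles chromosomes, followed most closely, with Pearson r = 0.94 (permutation p = 0.00032, adjusted 0.0042) and Spearman rho = 0.86 (permutation p = 0.00292, adjusted 0.0203). Without the 2 hearts farthest from the median of Mki67, floxed untreated 4 and Cre succinate 4, its r was 0.87. Ccnb1 gave r = 0.93 (permutation p = 0.00057, adjusted 0.0049) and rho = 0.95 (permutation p = 2e-05, adjusted 0.00072), with r = 0.87 without those hearts. Over the 28 genes the median r was 0.71, and 0.55 without those hearts.

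Other members did not follow Mki67. Cenpf gave r = -0.25 (permutation p = 0.461, adjusted 0.553) and rho = -0.07 (permutation p = 0.821, adjusted 0.899), and r = 0.01 without those hearts. Its promoter printed above holds a CHR and CCAAT boxes, as do those of Ccnb2 and Hmgb2. Hmgb2 gave r = 0.34 (permutation p = 0.419, adjusted 0.552), and Ccne1 and Ccne2 gave r = 0.23 and 0.24. Conversely, the promoter of Ccnb1 (r = 0.93) held no CHR, and that of Birc5 (r = 0.87) held no match to any of the motifs. Ccnb2 itself gave r = 0.65 (permutation p = 0.0791, adjusted 0.124) and rho = 0.56 (permutation p = 0.0568, adjusted 0.0929), with r = 0.27 without those hearts, and passed by neither measure. Of the 8 replication genes only Rrm2 passed, with r = 0.74 (permutation p = 0.00035, adjusted 0.0042), rho = 0.68 (permutation p = 0.00295, adjusted 0.0203) and r = 0.57 without those hearts. Pcna gave r = 0.10 (permutation p = 0.748, adjusted 0.769) and rho = -0.01 (permutation p = 0.974, adjusted 0.974), and its r became -0.39 without those hearts. A correlation that misses the threshold over 16 hearts does not show that a gene is independent of Mki67.

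**Figure D5:**
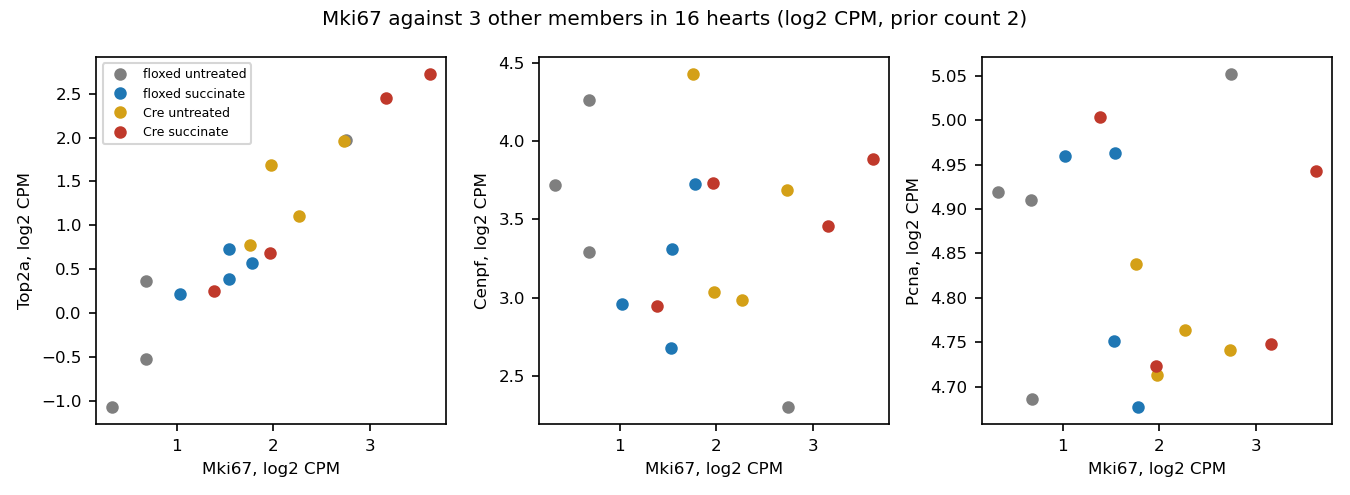
Log2 CPM of Top2a, Cenpf and Pcna (vertical axes) against Mki67 (horizontal axes) in 16 hearts, coloured by group, with group means left in and vertical scales that differ between panels. Top2a rises with Mki67 across all groups, while Cenpf and Pcna show no such line.

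The 5 hearts named as high for mitotic genes in the heatmap differed in some markers. Fabp4 had 15852 to 47071 counts a heart, and no other endothelial marker exceeded 12922, so differences in the endothelial sum can rest largely on Fabp4. Floxed untreated 4 had an endothelial sum of 2577 CPM, beside 1650 to 1817 in the other 3 hearts of its group, and an erythroid sum of 260 CPM, beside 58.6 to 77.3. Its macrophage sum of 234 CPM lay among the others. Cre succinate 4 had the lowest endothelial sum of its group, 1983 CPM, an erythroid sum of 63.4 CPM, also the lowest, and a macrophage sum of 193 CPM inside its group range of 137 to 234. Cre succinate 3 had the highest fibroblast sum of all hearts, 1378 CPM, and the highest macrophage sum of its group, 234 CPM, with an endothelial sum of 2505 CPM inside its group range. Cre untreated 2 had the highest erythroid sum of all hearts, 439 CPM, beside 34.6 to 135 in the rest of its group, and the highest endothelial sum of its group, 2283 CPM. Cre untreated 4 had the lowest fibroblast sum of its group, 1016 CPM, while its endothelial, erythroid and macrophage sums lay inside the group ranges. The part of these markers in the mitotic levels was not tested.

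Among 84 further cell cycle genes taken from 5 lists, 74 were tested. They were listed with earlier results of these data known. In floxed hearts 5 rose and 2 fell, where 7.48% and 5.64% of all tested genes did, and averaged over genotypes 7 rose and 4 fell, where 10.6% and 8.45% of all tested genes did, so these shares are no higher than those of all genes. Of 9 G1 cyclins, CDKs and RB family genes, 3 rose and 1 fell in floxed hearts. Rbl2, the pocket protein p130 of the DREAM complex that holds resting cells out of the cycle, rose from 38.9 ± 1.69 to 67.0 ± 6.44 CPM (SD, n = 4) in floxed hearts, a log2 fold change of 0.79 ± 0.09 (adjusted p = 8.71e-05). In Cre hearts Rbl2 measured 46.7 ± 4.75 and 60.5 ± 5.95 CPM, a log2 difference of 0.38 ± 0.09 that did not pass (adjusted p = 0.0590). Cdk2, the kinase of cyclins E and A, rose by 0.56 ± 0.13 in floxed hearts (adjusted p = 0.00874), and Cdk6, a G1 kinase, by 0.54 ± 0.14 (adjusted p = 0.0153). Ccnd1, cyclin D1, which activates Cdk4 and Cdk6 in G1, was the member of that list that fell, from 84.9 ± 8.30 to 57.5 ± 9.60 CPM (log2 fold change -0.56 ± 0.16, adjusted p = 0.0322). Averaged over genotypes 3 genes of that list rose and 1, Ccnd1, fell.

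Of 7 tested CDK inhibitors and p53, 1 rose in floxed hearts: Cdkn1b, the inhibitor p27, went from 23.2 ± 3.87 to 34.5 ± 1.27 CPM (log2 fold change 0.57 ± 0.11, adjusted p = 0.00263). Averaged over genotypes Cdkn1b rose by 0.37 ± 0.08 (adjusted p = 0.00278) and Cdkn1c, the inhibitor p57, fell by 0.34 ± 0.11 (adjusted p = 0.0376). Of 13 tested E2F, FOXM1 and MuvB factors, E2f4, the E2F partner of p130, fell by 0.27 ± 0.08 in floxed hearts (adjusted p = 0.0386) and by 0.19 ± 0.06 averaged (adjusted p = 0.0281), while Lin52, a MuvB subunit, rose by 0.23 ± 0.06 averaged (adjusted p = 0.0164). Of 21 tested origin and fork genes, Gmnn, geminin, which blocks relicensing of origins, rose by 0.39 ± 0.11 in floxed hearts (adjusted p = 0.0257) and by 0.42 ± 0.08 averaged (adjusted p = 0.00122). Gins1, a part of the active helicase, rose by 0.55 ± 0.19 averaged (adjusted p = 0.0477). Of 24 tested mitosis genes that are no members, 1 fell with succinate on average, the condensin subunit Smc2, by 0.52 ± 0.18 (adjusted p = 0.0492). Leaving out 1 heart ended the succinate call of Ccnd1, Cdk6, E2f4 and Gmnn in floxed hearts (adjusted p up to 0.103, 0.0613, 0.0886 and 0.0955) and of Cdkn1c, E2f4, Gins1 and Smc2 in the averaged comparison (up to 0.0782, 0.0623, 0.108 and 0.0980), while those of Rbl2, Cdk2 and Cdkn1b held in every alternative run. The averaged call of Ccnd1 was also lost in some fits without 1 heart.

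Between genotypes, averaged, 2 of the 74 rose, where 1.3% of all tested genes did. Spc25, a subunit of the NDC80 kinetochore complex, measured 0.232 ± 0.193 CPM in floxed untreated, 0.253 ± 0.0482 in floxed succinate, 0.886 ± 0.167 in Cre untreated and 0.851 ± 0.345 in Cre succinate hearts, with a log2 fold change of 1.83 ± 0.34 (adjusted p = 0.00747). Its lowest floxed untreated heart, at 0.0613 CPM, lay under the floor of 3 counts, and this faint gene entered the test through its Cre hearts. The genotypes overlapped, with up to 0.485 CPM in floxed untreated and as little as 0.361 in Cre succinate hearts. Ccnd2, cyclin D2, rose by 0.39 ± 0.09 (adjusted p = 0.0377), a call that was lost in 11 of the 16 fits without 1 heart (adjusted p up to 0.0883). The median averaged difference was 0.54 over the 24 mitosis genes and 0.13 over the 21 origin and fork genes. None of the 74 passed for succinate in Cre hearts, for genotype with or without succinate, or for the interaction in edgeR. Counts of these genes called by DESeq2 or limma voom in those comparisons are not given here. At an unadjusted p under 0.05, 8 were higher and 1 lower with succinate in Cre hearts, beside 7.99% and 6.07% of all tested genes. Between genotypes 11 were higher and 1 lower with succinate, beside 6.37% and 4.7%, and 6 were higher and 2 lower without it, beside 4.83% and 3.92%. For the interaction 3 were positive and 2 negative, beside 2.13% and 2.72%.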

How the data were processed

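Bulk RNA sequencing of 16 mouse hearts was analysed from the 2 deposited tables. TRIzol was used for RNA extraction and the VAHTS Universal V6 kit for library preparation, per the labels' protocols. Build GRCm39 and the tools HTSeq, HISAT2, fastp, DESeq2 and R 3.2.0 are named, per the submitters' processing notes, without roles or settings; whether counting used strand is not stated there. The whole-number counts per gene were made by the authors and tested as deposited. The deposited FPKM values equalled the count divided by the library total and 1 length per gene, to a relative spread of 1.16e-15. Promoters come from RefSeq (GRCm38.p6), so their coordinates are of another build than the counts.

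The filter was filterByExpr at a minimum count of 10, which 14607 genes passed, and TMM factors were computed. The test was edgeR 4.0.16 (R 4.3.3; robust quasi-likelihood F-test, 4 group means in 1 fit, 12 residual degrees of freedom, Benjamini-Hochberg threshold 0.05), checked on simulated counts. The SE is the log2 coefficient divided by the root of F, and intervals of 95% use the moderated degrees of freedom. Alternatives were RLE size factors, DESeq2 1.42.0, voom with quality weights in limma 3.58.1, no filter, a filter of 1 CPM in 4 samples, the replicate number as a block, only the 2 groups compared, each heart left out and, added later, 2 hearts left out together. The members, gene lists and markers were chosen with earlier results of these data known. Values in every heart are given for members that passed, the member of highest FPKM in each role and the 2 of smallest p where none passed. Mki67 was added after its values were seen. Of other cell cycle genes, up to 3 that passed per list are named. Marker lists were summed in CPM and not tested as lists. The adipocyte, lymphocyte and neutrophil sums were at most 0.791, 2.85 and 7.56 CPM in any heart, and the sum of pericyte and smooth muscle markers was 915 to 1377 CPM. All labels share 1 batch value. Intervals cover the spread between these samples, and the floor of 3 counts covers counting error only.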

Additional observations from a re-analysis of the deposited data

Results flagged for a closer look

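In each group of 4 hearts, the highest or lowest CPM of each member was compared with its nearest neighbour by Dixon's ratio, taking those above its 95% critical value. Of 160 groups 12 held a value that stood apart, where chance gives about 1 in 20, or 8. Of these, 6 were the highest value in floxed untreated 4. They were Mki67 at 6.65 CPM (others 1.19 to 1.54), Ccna2 at 2.01 CPM (0.375 to 0.561), Ccnb1 at 0.624 CPM (0.0682 to 0.105), Cdc20 at 2.70 CPM (1.07 to 1.23), Prc1 at 2.49 CPM (0.105 to 0.341) and Pbk at 0.728 CPM (0.0341 to 0.123). The members vary together, so these 6 are not separate signs.

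The other 6 fell in other hearts. Ccnb2 was highest in Cre succinate 4 at 1.89 CPM (others 0.656 to 0.778), Bub1b in floxed untreated 1 at 1.37 CPM (0.767 to 0.866), Cdk1 in floxed succinate 3 at 0.782 CPM (0.418 to 0.475) and Bub1 in floxed succinate 4 at 0.190 CPM (0.0314 to 0.0339). Plk1 was lowest in floxed succinate 2 at 0.102 CPM (others 0.261 to 0.283) and Cdca8 in Cre untreated 3 at 0.569 CPM (1.15 to 1.22). The untested Bub1 had only 1 to 5 counts in floxed succinate hearts. In floxed untreated hearts Ccnb1 and Pbk had as few as 2 and 1 counts. Dixon's ratio makes no allowance for counting error at such levels.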

How the results depend on the processing

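The fold changes of the members that passed (Mcm3 and Hmgb2 for succinate in floxed hearts and averaged, Mcm6 for succinate averaged and Ccnb2 for genotype averaged) changed sign in none of the alternatives run. Of the 37 tested members, 34 kept the sign of the averaged genotype difference in every alternative, Ccne2, Tyms and Hmgb2 being the exceptions, and 18 kept that of the averaged succinate difference. Among the other cell cycle genes, calls in floxed hearts were lost for Ccnd1 in 7, Cdk6 in 1, E2f4 in 10 and Gmnn in 6 of 24 alternatives. Averaged succinate calls were lost for Ccnd1 in 10, Cdkn1c in 10, E2f4 in 2, Lin52 in 1, Gins1 in 13 and Smc2 in 14 of 23, and the averaged genotype call of Ccnd2 in 12 of 23. With succinate, the genotype comparison called 2 members by DESeq2 (Aurkb with adjusted p 0.0344 and Ccnb2 with 0.0353) in place of 0, where DESeq2 called 2.24% of all genes. The averaged genotype comparison called 6 by DESeq2 (Aurkb, Bub1b, Ccnb1, Ccnb2, Cdca8 and Mcm2; 4.13% of all genes), 3 by voom (Aurkb, Ccnb2 and Mcm2; 2.86% of all genes), 4 with floxed untreated 4 and Cre succinate 4 left out together, and 0 under the filter of 1 CPM, which 26 members pass and Ccnb2 does not. Leaving out 1 heart gave 1 to 3 members for succinate in floxed hearts, 2 to 3 for succinate averaged and 1 to 8 for genotype averaged, and 0 throughout in the other 4 comparisons. The call of Mcm6 was also lost with those 2 hearts left out together (adjusted p = 0.109). The median of the tested members for the interaction was 0.27, and -0.23 without floxed untreated 4.

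Same-numbered hearts correlated at -0.12 to 0.32 (median 0.02) after group means were removed, over 0.1 in 3 of 24 pairs. Hearts of different number correlated at -0.28 to 0.24 (median -0.02), over 0.1 in 10 of 72 pairs. No pairing by number was seen, though so few hearts cannot exclude one. With the replicate number as a block, the counts of members called were the same, 2, 0 and 3 for succinate in floxed hearts, in Cre hearts and averaged, 0, 0 and 1 for genotype without succinate, with succinate and averaged, and 0 for the interaction; of the other cell cycle genes, E2f4 in floxed hearts and Smc2 averaged were no longer called. Depth limits the faint members: a count of 3 is 0.0801 to 0.114 CPM, and Ccnb1 and Pbk had as few as 1 count in a heart.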
